A study of Mus musculus with 6 samples.

Results

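The 8 genes described here encode 6 enzymes of cholesterol synthesis, Hmgcs1, Idi1, Fdps, Sqle, Lss and Cyp51, and a pair of regulators of that pathway, Srebf2 and Insig1. They were chosen by name, as the rows of the deposited table with these symbols, and all 8 were found among 56748 genes. The working label of the set also named cholesterol uptake, but none of the 8 is an uptake receptor, so uptake genes are given separately as a list. The samples were whole aortas of 6-month-old mice profiled by bulk RNA sequencing of poly-A-selected messenger RNA. All mice carried the Apoe -/- genotype, labelled ApoE-KO, and all received angiotensin II from an osmotic minipump for 28 days. The WT group (n = 3) were littermates wild-type for soluble ST2, and the sST2-KO group (n = 3) were littermates lacking soluble ST2, the secreted decoy receptor for interleukin-33 encoded by Il1rl1. No mice without angiotensin II and none with intact Apoe were in the comparison. The way the soluble form was removed and the sex of the mice: not given in the sources used here. No source says whether a library is 1 animal or a pool, so p-values measure the spread between these libraries.

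Cells make cholesterol from acetyl-CoA through mevalonate, isoprenoid diphosphates, squalene and lanosterol. When sterol in the endoplasmic reticulum is low, the membrane-bound transcription factor SREBP2, the product of Srebf2, is carried to the Golgi by SCAP and cut there, and its free end turns on the genes of the pathway. INSIG1 retains SCAP in the endoplasmic reticulum when sterol is plentiful. In the Apoe-deficient artery, cholesterol also arrives in remnant lipoproteins, which macrophages and smooth muscle cells take up.

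Promoter sequence was at hand for 6 of the 8 genes (RefSeq, GRCm38.p6, 250 bases before to 50 after the annotated start). It is shown because the pathway is the textbook case of shared control through a sterol regulatory element next to an NF-Y box. In the search of both strands, TCACNCCAC stood for the core of the sterol regulatory element and CCAAT for the NF-Y box; a CCAAT on the opposite strand reads ATTGG. In these windows no match to one motif overlapped a match to the other. TCACNCCAC was found in 1 of the 6 promoters, that of Hmgcs1, beginning 137 bases before the start, and in 1.24% of all 32851 promoters in the table. CCAAT was found in 6 of the 6 and in 37.4% of all promoters. The 250 bases before the start of Hmgcs1 (chr13:119690101-119690350, + strand) are given first, with matches to either motif, on either strand, in capitals. For the others, 60 bases that hold a CCAAT match are given: Insig1 (chr5:28071168-28071227, + strand), Idi1 (chr13:8885546-8885605, + strand), Lss (chr10:76531515-76531574, + strand), Cyp51 (chr5:4104698-4104757, - strand) and Srebf2 (chr15:82147106-82147165, + strand). A match is a run of letters and not a shown binding site. Elements with other letters or outside these windows were not searched for, so a promoter without a match may still hold one.
Hmgcs1: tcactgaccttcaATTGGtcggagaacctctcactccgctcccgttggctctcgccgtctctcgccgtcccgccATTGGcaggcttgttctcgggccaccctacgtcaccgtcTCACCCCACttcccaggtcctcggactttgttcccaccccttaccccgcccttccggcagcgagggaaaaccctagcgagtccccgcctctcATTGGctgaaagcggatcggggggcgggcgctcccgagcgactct
Insig1: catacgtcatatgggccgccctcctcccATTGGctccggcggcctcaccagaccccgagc
Idi1: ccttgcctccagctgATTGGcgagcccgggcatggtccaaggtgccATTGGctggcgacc
Lss: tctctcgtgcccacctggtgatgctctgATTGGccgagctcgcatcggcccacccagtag
Cyp51: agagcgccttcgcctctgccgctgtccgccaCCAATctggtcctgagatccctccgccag
Srebf2: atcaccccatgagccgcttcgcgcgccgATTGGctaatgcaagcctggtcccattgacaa

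Libraries held 15615658 to 17988552 counts, and 16377 genes passed the filter on low counts, all 8 of these among them. Il1rl1, the targeted gene, ranged from 2.81 to 9.49 CPM (counts relative to library size, scaled by TMM) in the WT libraries and from 2.39 to 4.86 CPM in the sST2-KO libraries. Counts per gene add both isoforms, so they are a weak check of the genotype. In the values that follow, WT 1 stands for the WT library of replicate 1, and so on. Apoe transcripts were counted in every library, at 15.1, 11.6 and 507 (WT 1, 2 and 3) and 172, 86.7 and 145 CPM (sST2-KO 1, 2 and 3). The sST2-KO libraries were all above WT replicates 1 and 2 and below WT replicate 3, the library with hepatocyte transcripts. Whether these transcripts bear on the labelled Apoe genotype was not tested. Smooth muscle markers summed to 3054 to 10552 CPM, so the markers of the labelled tissue were present in every library. A pair of libraries stood apart. All 8 airway epithelial markers were highest in sST2-KO replicate 2 (32394 CPM in sum, against 32.7 to 77.5 CPM elsewhere). Of 8 hepatocyte markers, 7 were highest in WT replicate 3 (10276 CPM in sum, against 94.5 to 585 CPM elsewhere). Outside WT replicate 3, Cyp2e1 made up most of the hepatocyte sum, at 85.8 to 576 CPM, while Alb had 0.544 to 3.83 CPM. The share of counts from mitochondrial DNA was 37.8% in WT replicate 2, 7.08% in sST2-KO replicate 2 and 18.4 to 23.7% in the others. In whole tissue, fewer cells of a type and less RNA per cell cannot be told apart.

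For none of the 8 genes did the difference between the groups pass the test against the spread of the libraries. The edgeR quasi-likelihood test called 0 of the 8, with adjusted p from 0.443 (Hmgcs1) to 0.989 (Lss); across the table it called 0% of genes higher and 0% lower in sST2-KO. DESeq2 called 0 of the 7 to which it gave an adjusted p (0.360% of all tested genes higher and 1.42% lower), and limma-voom with quality weights called 0 of the 8 (0.0488% higher and 0.214% lower). At an unadjusted p under 0.05 there was 1 of the 8, Hmgcs1, where 5.08% of tested genes passed in the higher direction and 5.95% in the lower. The WT and sST2-KO libraries overlapped for every one of the 8, while they did not overlap for 19.1% of tested genes. DESeq2 gave no adjusted p for 1862 genes, Fdps among them. The median log2 difference of the 8 was 0.16, with 6 positive and 2 negative, against 0.042 over all tested genes. It was -0.11 without WT replicate 2 and -0.23 in limma-voom with quality weights, so the 8 have no settled direction. A positive log2 difference (log2 change in the plots) means a higher level in sST2-KO throughout.

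**Figure D1:**
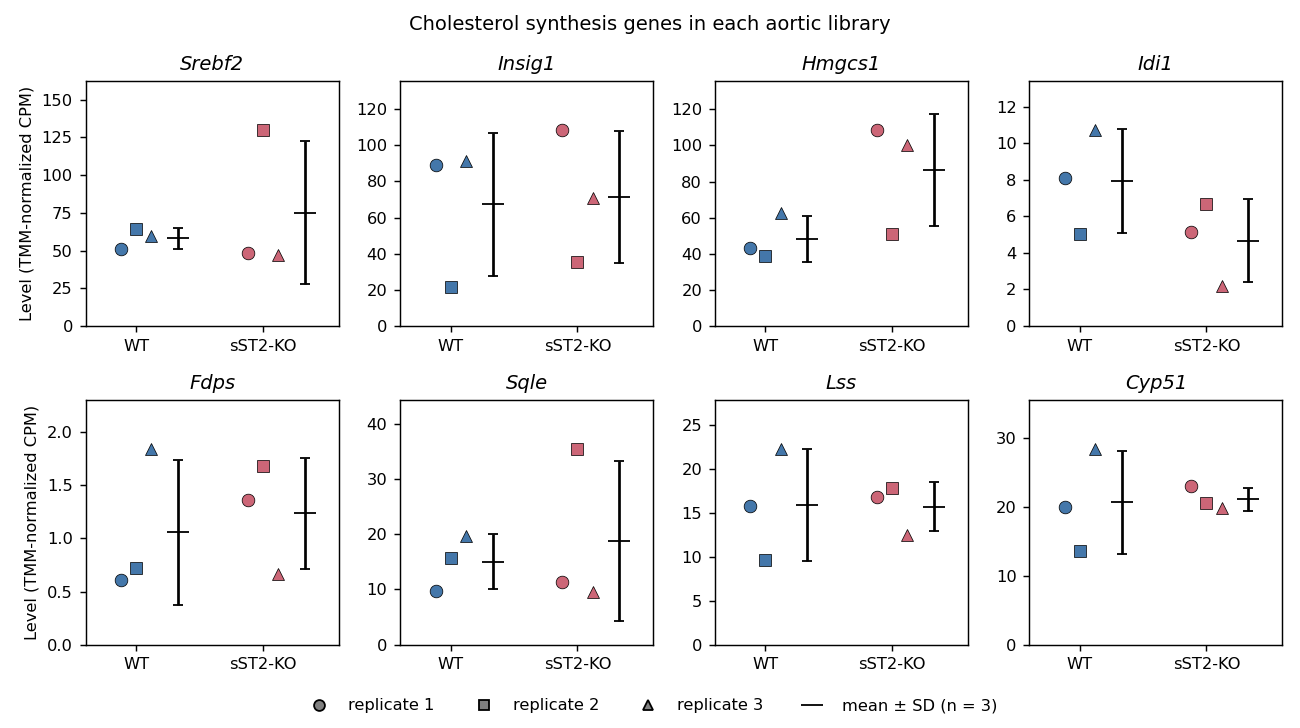
Level of each of the 8 genes (TMM-normalized CPM, linear axes from 0) in the 3 WT and 3 sST2-KO libraries, with symbols for the replicate and the group mean ± SD at the right of each group. The groups overlap in every panel; for Hmgcs1, sST2-KO replicates 1 and 3 (109 and 99.99 CPM) lie above all WT libraries, and for Srebf2 and Sqle 1 library, sST2-KO replicate 2, lies far above the rest.

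Srebf2 (ENSMUSG00000022463, chromosome 15, 82031382 to 82089580, mm39) encodes the transcription factor that drives the pathway. It had 50.8, 64.5 and 59.3 (WT 1, 2 and 3) and 48.3, 130 and 47.0 CPM (sST2-KO 1, 2 and 3). All WT libraries lay within a narrow band, the sST2-KO libraries of replicates 1 and 3 lay just under it, and sST2-KO replicate 2, the library with airway transcripts, stood far above all others. Its log2 difference was 0.37 (SE 0.41; edgeR adjusted p = 0.715), with group means of 58.2 ± 6.93 and 75.1 ± 47.5 CPM (SD, n = 3 each). The direction turned once sST2-KO replicate 2 was left out: the log2 difference was -0.28 (edgeR adjusted p = 0.517), the sST2-KO libraries then lay below all WT libraries, and 17.4% of all tested genes were lower without overlap in that set of 5 libraries.

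Insig1 (ENSMUSG00000045294, chromosome 5, 28276361 to 28283660), the sterol-dependent brake on SREBP processing and itself a known SREBP target, varied most among the 8. The values were 88.9, 21.8 and 91.3 (WT 1, 2 and 3) and 108, 35.6 and 70.7 CPM (sST2-KO 1, 2 and 3), a 4.98-fold range. The library of replicate 2 was the lowest in each group, and the others lay close together whatever their genotype. The means were 67.3 ± 39.5 and 71.6 ± 36.4 CPM (SD, n = 3 per group), a log2 difference of 0.087 (SE 0.59; edgeR adjusted p = 0.959). Without WT replicate 2 the log2 difference was -0.35, without sST2-KO replicate 2 it was 0.41 and without sST2-KO replicate 1 it was -0.34, so its direction depended on single libraries. The approximate 95% interval of the change ran from 0.403-fold to 2.80-fold, so these libraries leave a wide range.

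White adipocyte markers had the same pair of low libraries. The 8 markers, all tested, summed to 3682, 902 and 2836 (WT 1, 2 and 3) and 4272, 759 and 4422 CPM (sST2-KO 1, 2 and 3). Srebf1, which encodes the lipogenic relative of SREBP2, followed a like order, with 220, 87.5 and 206 (WT 1, 2 and 3) and 377, 152 and 238 CPM (sST2-KO 1, 2 and 3). The part of white adipocytes in the Insig1 levels was not tested.

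Hmgcs1 (ENSMUSG00000093930, chromosome 13, 120151915 to 120169796) makes HMG-CoA in the cytosol, an early step of the pathway. It had 43.4, 38.7 and 62.5 (WT 1, 2 and 3) and 109, 50.9 and 99.99 CPM (sST2-KO 1, 2 and 3). The sST2-KO libraries of replicates 1 and 3 were above every WT library, and replicate 2 lay between the WT libraries. The mean was 1.79-fold higher in sST2-KO (86.5 ± 31.1 against 48.2 ± 12.6 CPM, SD, n = 3 each), with a log2 difference of 0.84 (SE 0.33) that did not pass (edgeR unadjusted p = 0.0365, adjusted p = 0.443). The approximate 95% interval for this gene alone ran from 1.05-fold to 3.06-fold. The antisense gene Gm48342 lies within it and held 0 counts in each WT library and 11, 1 and 1 in sST2-KO 1, 2 and 3.

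The direction of Hmgcs1 was the same in all 17 alternative settings, with log2 differences from 0.65 to 1.34 and edgeR, DESeq2 or limma adjusted p no lower than 0.106. Without sST2-KO replicate 2 the log2 difference was 1.11 (SE 0.24; edgeR adjusted p = 0.283) and the groups no longer overlapped; 18.4% of tested genes were higher without overlap in those 5 libraries. Leaving out the libraries with hepatocyte and airway transcripts (WT 3 and sST2-KO 2) gave 1.34 (edgeR adjusted p = 0.606).

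With 1 library left out, Hmgcs1 was higher without overlap in the sets lacking WT replicate 3 or sST2-KO replicate 2. Srebf2 was lower without overlap in the set lacking sST2-KO replicate 2, and Idi1 in the set lacking WT replicate 2; no other gene of the 8 separated the groups in these 6 sets. Among all tested genes, the shares higher without overlap were 13.0%, 12.9% and 12.4% without WT 1, 2 or 3 and 13.7%, 18.4% and 13.8% without sST2-KO 1, 2 or 3. The shares lower without overlap were 13.7%, 16.7% and 13.1%, and 15.7%, 17.4% and 13.6%, in the same order. With a pair left out they were 22.3% higher and 21.9% lower (WT 3 and sST2-KO 2), and 26.1% higher and 25.5% lower (both replicate 2 libraries). The edgeR test called 0 of the 8 in all these sets, where it called 0.00594% of tested genes without sST2-KO replicate 2, 0.673% without both replicate 2 libraries and 0% in the others.

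Summed brown adipocyte markers were also highest in sST2-KO replicates 1 and 3. The 8 markers were all tested and all had positive log2 differences; they summed to 351, 163 and 265 (WT 1, 2 and 3) and 1295, 165 and 2500 CPM (sST2-KO 1, 2 and 3). Ucp1, the uncoupling protein that defines brown fat and was chosen after its values were seen, had 36 to 811 counts in WT and 708 to 21544 in sST2-KO. Ucp1 made up 591 CPM of the sum in sST2-KO replicate 1 and 1433 CPM in sST2-KO replicate 3. Dio2 did not keep the order, with 144 CPM in WT replicate 2 and 62.3 CPM in sST2-KO replicate 1. The part of brown fat in the Hmgcs1 levels was not tested.

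**Figure D2:**
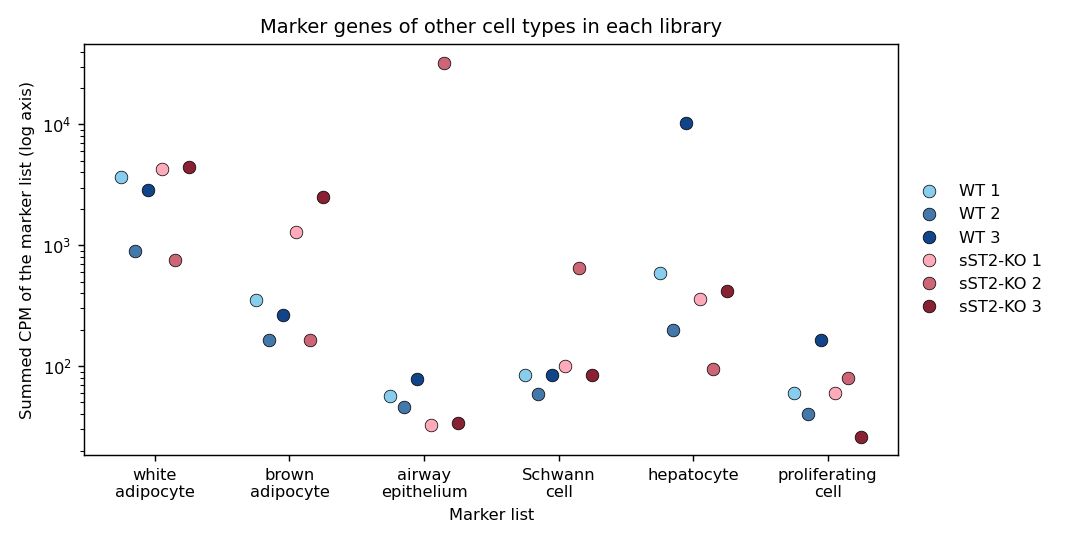
Summed CPM (log axis) of 6 marker lists in each of the 6 libraries; each point is 1 library, blue for WT and red for sST2-KO. White adipocyte markers are lowest in WT replicate 2 and sST2-KO replicate 2, brown adipocyte markers highest in sST2-KO replicates 1 and 3, airway and Schwann cell markers highest in sST2-KO replicate 2, and hepatocyte and proliferation markers highest in WT replicate 3.

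Idi1 (ENSMUSG00000058258, chromosome 13, 8935537 to 8942487) interconverts the isoprenoid building blocks isopentenyl and dimethylallyl diphosphate. Levels were 8.11, 5.02 and 10.7 (WT 1, 2 and 3) and 5.17, 6.68 and 2.20 CPM (sST2-KO 1, 2 and 3), from 33 to 180 counts. The highest libraries were WT replicates 3 and 1, the lowest was sST2-KO replicate 3, and WT replicate 2 lay under 2 of the sST2-KO libraries. Its log2 difference of -0.76 (SE 0.49; edgeR adjusted p = 0.554) was the most negative of the 8, and it stayed negative in all 17 alternative settings, from -1.34 to -0.43. Without WT replicate 2 it was -1.03 and the groups did not overlap, as for 16.7% of tested genes lower in those 5 libraries; without sST2-KO replicate 3 it was -0.43. Processed copies of Idi1 have rows of their own, and Idi1-ps1 held 2 to 9 counts, so reads shared with such copies may be split in a way that the table does not show.

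Fdps (ENSMUSG00000059743, chromosome 3, 89000895 to 89009266) makes farnesyl diphosphate, the branch point towards squalene, dolichol, ubiquinone and protein prenylation. It was read 11, 9 and 31 times (WT 1, 2 and 3) and 24, 34 and 10 times (sST2-KO 1, 2 and 3), or 0.607 to 1.85 CPM. These are the lowest levels of the 8, with both groups holding high and low libraries. The log2 difference was 0.23 (SE 0.63; edgeR adjusted p = 0.896). Its log2 difference was 0.91 with WT replicate 3 left out and -0.058 with WT replicate 1 left out. The row overlaps Gm43738 on the same strand, which held 0 to 2 counts. No source says how reads fitting several places were counted, so the level of Fdps is uncertain.

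Sqle (ENSMUSG00000022351, chromosome 15, 59186926 to 59203041), squalene epoxidase, carries out a rate-limiting step of the sterol branch. It reached 9.70, 15.7 and 19.7 (WT 1, 2 and 3) and 11.4, 35.6 and 9.58 CPM (sST2-KO 1, 2 and 3). Like Srebf2 it was highest by far in sST2-KO replicate 2, and the other sST2-KO libraries were at the bottom of the WT range. The log2 difference was 0.33 (SE 0.54; edgeR adjusted p = 0.813) and it turned to -0.51 without sST2-KO replicate 2 (edgeR adjusted p = 0.530).

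Beside the airway markers, Schwann cell markers were high in the library where Srebf2 and Sqle peaked. Myelinating Schwann cells are known for heavy cholesterol synthesis. The 9 markers summed to 645 CPM in sST2-KO replicate 2 and to 58.6 to 100.2 CPM in the other 5 libraries, and 7 of the 9 were highest there. All 7 tested markers had positive log2 differences, and the summed levels did not overlap between the groups (58.6 to 84.1 CPM in WT, 84.6 to 645 CPM in sST2-KO). The part of airway or nerve tissue in these levels was not tested.

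Lss (ENSMUSG00000033105, chromosome 10, 76367422 to 76392972), which folds squalene epoxide into lanosterol, and Cyp51 (ENSMUSG00000001467, chromosome 5, 4131145 to 4154746), the lanosterol demethylase, showed the smallest differences. Lss had 15.7, 9.57 and 22.3 (WT 1, 2 and 3) and 16.8, 17.8 and 12.5 CPM (sST2-KO 1, 2 and 3). Cyp51 had 19.96, 13.6 and 28.5 (WT 1, 2 and 3) and 23.0, 20.6 and 19.8 CPM (sST2-KO 1, 2 and 3). For both genes the WT group held the lowest library, replicate 2, and the highest, replicate 3, with all sST2-KO libraries in between. The log2 differences were -0.016 for Lss (SE 0.34; edgeR adjusted p = 0.989) and 0.031 for Cyp51 (SE 0.28; edgeR adjusted p = 0.973), with approximate 95% intervals from 0.568-fold to 1.72-fold and from 0.641-fold to 1.63-fold. With single libraries left out the directions of both turned, over ranges from -0.30 to 0.31 for Lss and from -0.22 to 0.33 for Cyp51. Cyp51 overlaps the end of Akap9 on the opposite strand, which was highest in sST2-KO replicate 2 (83.0 CPM, against 29.9 to 37.8 CPM elsewhere), unlike Cyp51. The strand setting of the counting: not given in the sources used here.

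**Figure D3:**
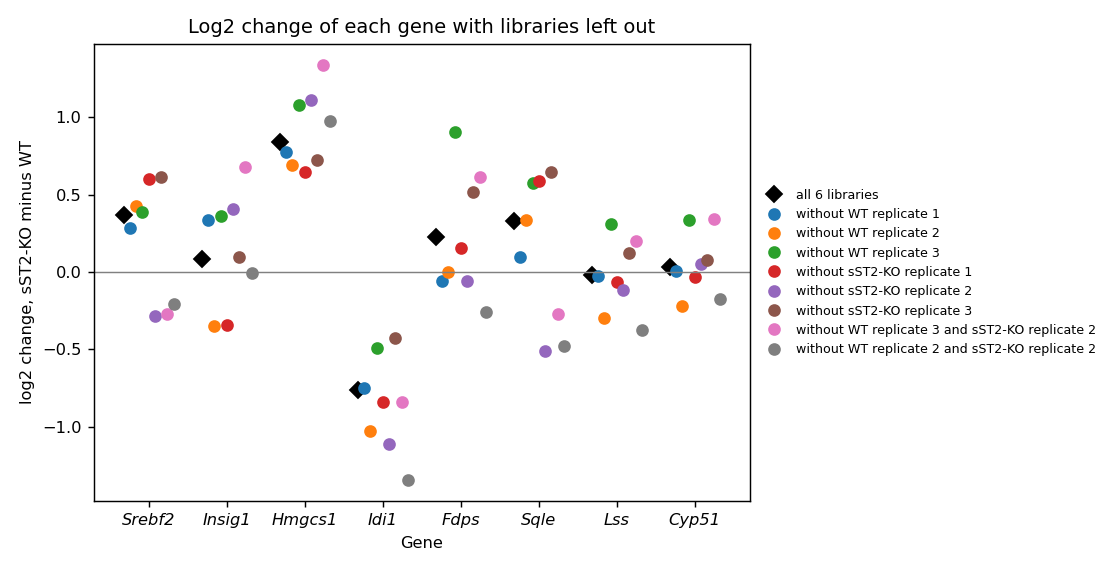
Log2 change of each gene (sST2-KO minus WT, edgeR) with all 6 libraries (black diamonds), without each library in turn, and without 2 pairs of libraries (circles). Hmgcs1 stays above 0 and Idi1 below 0 in every one of these settings, and the other 6 genes fall on both sides of 0.

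The 8 genes did not share 1 pattern over the libraries. Likeness was measured as the root mean square difference between log2 CPM profiles centred on each gene's mean (prior count 2), over 6 libraries. Lss and Cyp51 were the closest of the 28 pairs, at 0.14 log2 units, followed by Sqle and Srebf2 at 0.26. Sqle and Insig1 were the farthest apart, at 1.29, ahead of Insig1 and Srebf2 at 1.20. Sqle and Srebf2 were at their highest in sST2-KO replicate 2, where Insig1 was well under its mean. The SD of log2 CPM over the libraries was 0.91 for Insig1 and 0.35 for Cyp51, with a median of 0.41 over all tested genes. The library with most of the 8 above their mean was WT replicate 3, with 7; WT replicate 2 and sST2-KO replicate 3 had 2 each.

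**Figure D4:**
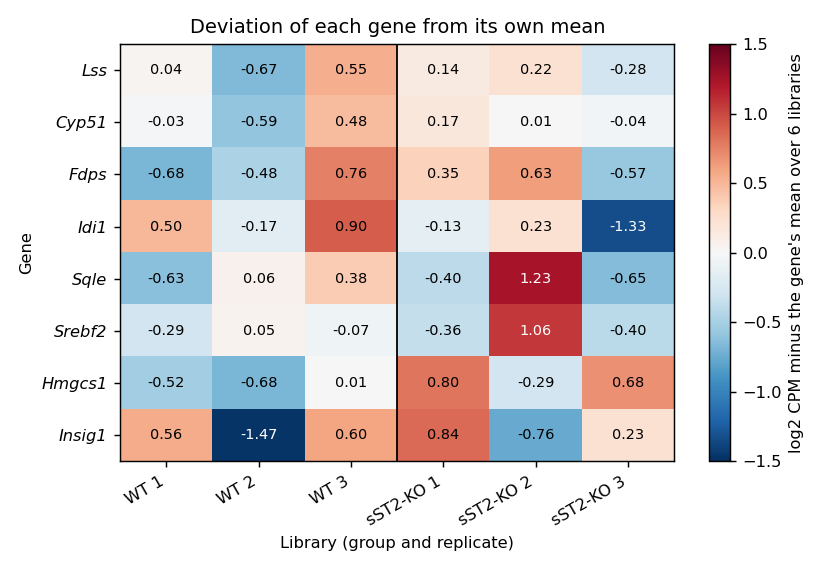
Log2 CPM of each gene minus its mean over the 6 libraries (colour and printed value), with WT at the left of the black line and sST2-KO at the right. Lss and Cyp51 are low in WT replicate 2 and high in WT replicate 3, Sqle and Srebf2 are high in sST2-KO replicate 2 (1.23 and 1.06), and Insig1 is low in both replicate 2 libraries (-1.47 and -0.76).

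Levels are compared between genes only per kilobase of the deposited gene length, as mean ± SD over the 6 libraries. Insig1 was highest at 22.5 ± 11.0 CPM per kilobase, then Hmgcs1 at 14.7 ± 6.49 and Srebf2 at 9.28 ± 4.41. Cyp51 followed at 4.74 ± 1.10 CPM per kilobase, Sqle at 3.06 ± 1.79, Idi1 at 1.80 ± 0.835, Lss at 1.46 ± 0.408 and Fdps at 0.273 ± 0.132. The ranges over libraries overlapped for all neighbours in this order except Srebf2 over Cyp51 (lowest 6.55 against highest 6.46 CPM per kilobase) and Lss over Fdps (0.887 against 0.439). The order of Idi1 and Lss differed between the groups, with means of 2.27 and 1.47 CPM per kilobase in WT and 1.34 and 1.45 in sST2-KO.

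None of the other enzymes of the pathway passed the test. Of 15 further cholesterol synthesis enzymes, all tested, 0 passed in either direction and 0 reached an edgeR unadjusted p under 0.05. Of all tested genes, 5.08% were higher and 5.95% lower at that p. Among the 15, 11 log2 differences were positive and 4 negative, with a median of 0.11 and a range from -0.36 to 0.76. That median was -0.095 without WT replicate 2, 0.39 without WT replicate 3 and -0.14 in limma-voom with quality weights, so its sign depended on single libraries. Pmvk, which phosphorylates phosphomevalonate, had the largest change of the 15, 0.76 (SE 0.44; edgeR adjusted p = 0.524), and Lbr, a sterol reductase of the nuclear envelope, the most negative, -0.36 (SE 0.27; edgeR adjusted p = 0.599). Acat2, the thiolase that begins the pathway, ranged from 12.4 CPM in WT replicate 2 to 72.8 CPM in sST2-KO replicate 3.

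Across all 21 enzymes, the extremes were mostly in the WT group. WT replicate 3 was the highest library for 12 of the 21 and WT replicate 2 the lowest for 12, against 1438 and 4635 of all 16377 tested genes. The median deviation from a gene's mean was -0.053, -0.44 and 0.48 log2 units (WT 1, 2 and 3). It was 0.17, 0.21 and -0.22 in sST2-KO replicates 1 to 3. Beside its hepatocyte transcripts, WT replicate 3 had the highest sum of the 8 proliferation markers, 165 CPM against 26.1 to 79.9 CPM elsewhere, with 7 of the 8 highest there. The part of liver or dividing cells in the enzyme levels was not tested.

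**Figure D5:**
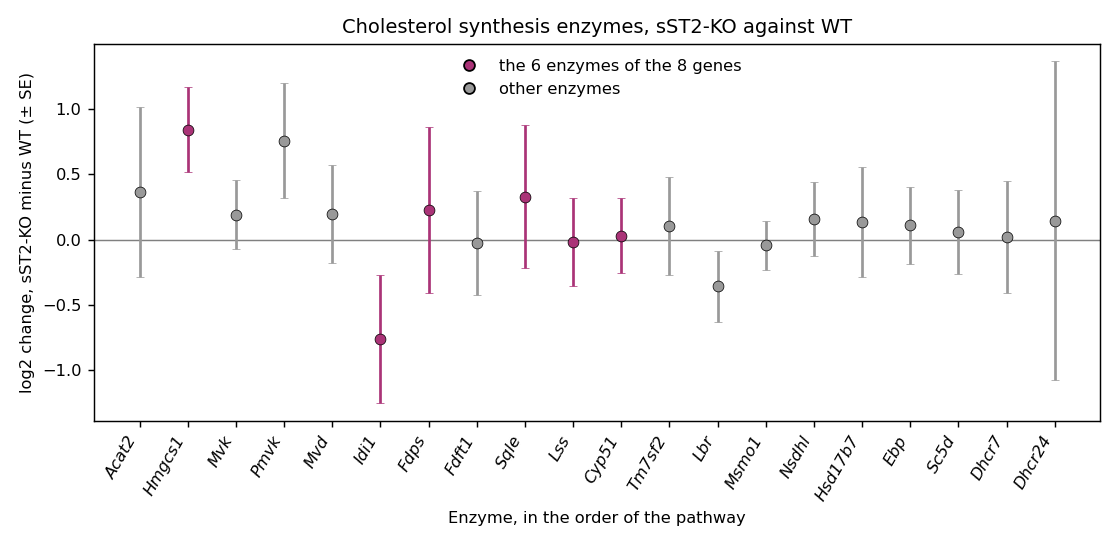
Log2 change (sST2-KO minus WT, edgeR, ± SE) of cholesterol synthesis enzymes in the order of the pathway, with the 6 enzymes of the set in purple and others in grey. All but Hmgcs1, Idi1, Pmvk and Lbr lie within 1 SE of 0; Hmgcs1 (0.84) and Pmvk (0.76) are the highest, and Idi1 (-0.76) is the lowest.

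Of 12 further genes of SREBP control, 0 passed, and the median log2 difference was -0.0018. At an edgeR unadjusted p under 0.05, 5.08% of all tested genes were higher and 5.95% lower. Among the 12 genes, 0 were higher and 2 lower at that p. Those 2 were Mbtps2, the protease that makes the second cut in SREBP, and Erlin1, an endoplasmic reticulum protein that restrains SREBP. Mbtps2 had 16.8, 24.9 and 18.8 (WT 1, 2 and 3) and 10.9, 11.3 and 12.3 CPM (sST2-KO 1, 2 and 3) (log2 difference -0.81, SE 0.22; edgeR adjusted p = 0.406). Erlin1 had 22.9, 24.7 and 23.5 (WT 1, 2 and 3) and 14.0, 15.2 and 18.4 CPM (sST2-KO 1, 2 and 3) (log2 difference -0.58, SE 0.19; edgeR adjusted p = 0.431). Both separated the groups without overlap, 2 of the 12 genes, where 19.1% of all tested genes did. Scap, the escort of SREBP, had a log2 difference of 0.27 (SE 0.18), with edgeR adjusted p = 0.569.

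Among 16 genes of cholesterol uptake and trafficking, 0 passed in edgeR, with 1 higher and 2 lower at an unadjusted p under 0.05. Of all tested genes, 5.08% were higher and 5.95% lower at that p. The median log2 difference of the 16 was -0.15 (5 positive, 11 negative). It ranged from -0.27 without sST2-KO replicate 1 to -0.059 without sST2-KO replicate 2. The scavenger receptor Msr1, which takes up modified lipoproteins in macrophages, had 59.7, 51.6 and 52.7 (WT 1, 2 and 3) and 29.8, 17.4 and 20.3 CPM (sST2-KO 1, 2 and 3). Its log2 difference was -1.28 (SE 0.23), and edgeR did not call it (adjusted p = 0.335). DESeq2 called it lower (adjusted p = 0.00107), as it did 1.42% of all tested genes. No other setting called it. Macrophage markers were lower with it: all 8 had negative log2 differences, and their sum was 942 to 1128 CPM in WT and 485 to 713 CPM in sST2-KO. The part of macrophage number in Msr1 was not tested.

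Npc1, which exports cholesterol from lysosomes, had a log2 difference of -0.51 (SE 0.14; edgeR adjusted p = 0.410), with 50.1 to 52.1 CPM in WT and 32.7 to 37.9 CPM in sST2-KO. The remnant receptor Lrp1 had 883 to 900 CPM in WT and 592 to 733 CPM in sST2-KO (log2 difference -0.46, SE 0.22; edgeR adjusted p = 0.481). In the opposite direction, Gramd1b, a sterol carrier between plasma membrane and endoplasmic reticulum, had 28.0 to 36.6 CPM in WT and 46.3 to 55.7 CPM in sST2-KO (log2 difference 0.66, SE 0.17; edgeR adjusted p = 0.386). Each of these 3, and Msr1, separated the groups without overlap, 4 of the 16 genes against 19.1% of all tested genes. Cd36 and Npc2, the abundant members per kilobase, had log2 differences of 0.32 (SE 0.43) and -0.15 (SE 0.32).

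Of 11 genes of cholesterol efflux, esterification and oxidation, 3 had positive and 8 negative log2 differences, with a median of -0.27. In edgeR 0 passed, and 1 higher and 3 lower had an unadjusted p under 0.05. Of all tested genes, 5.08% were higher and 5.95% lower at that p. Abca1, the efflux pump to lipid-poor apolipoproteins, had 237 to 287 CPM in WT and 115 to 211 CPM in sST2-KO (log2 difference -0.64, SE 0.26; edgeR adjusted p = 0.445). Soat1, which esterifies cholesterol for storage, had a log2 difference of -0.44 (SE 0.15; edgeR adjusted p = 0.435). Ch25h, whose product 25-hydroxycholesterol blocks SREBP processing, had 11.1, 5.26 and 10.3 (WT 1, 2 and 3) and 3.75, 4.50 and 3.19 CPM (sST2-KO 1, 2 and 3) (log2 difference -1.22, SE 0.38; edgeR adjusted p = 0.426). Nr1h2, which encodes the sterol sensor LXR beta, had a log2 difference of 0.37 (SE 0.15; edgeR adjusted p = 0.443). These 4 of the 11 genes did not overlap between the groups, against 19.1% of all tested genes. Summed fibroblast markers (10712 to 12371 CPM in WT, 4551 to 7036 CPM in sST2-KO) and the macrophage markers given above were also lower without overlap, and their part in Abca1, Soat1 and Ch25h was not tested. The list's median was 0.014 without sST2-KO replicate 3.

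Lipogenic genes driven by the related factor SREBP1c varied more between libraries than the cholesterol genes. Of 13, 0 passed, 12 log2 differences were positive and the median was 0.60, with a range from 0.14 without sST2-KO replicate 1 to 1.09 without WT replicate 1. The genes had a median SD of log2 CPM of 1.20 against 0.63 for the 8 genes. Scd1, the stearoyl-CoA desaturase, had 7205, 878 and 5031 (WT 1, 2 and 3) and 12323, 1306 and 8855 CPM (sST2-KO 1, 2 and 3). As with Insig1 and the summed white adipocyte markers (902 and 759 CPM in these libraries, 2836 to 4422 CPM in the others), both replicate 2 libraries were the low ones. The part of adipocytes in the lipogenic genes was not tested.

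The genes most like the median profile of the 8 were Mthfd1, at a root mean square difference of 0.089 log2 units over 6 libraries, Nudt1 (0.11), Sap18b (0.13), Mcm7 (0.13), Gcc1 (0.13), Slc25a15 (0.14), Cbx2 (0.14) and Asl (0.14), out of 11457 protein-coding genes with a mean of at least 5 CPM. Mcm7 is a subunit of the replicative helicase and Mthfd1 an enzyme of folate metabolism. Of the 8 cholesterol genes themselves, Lss (0.10) and Cyp51 (0.16) lay nearest to their common median, and Insig1 (0.73) farthest from it.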

How the data were processed

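Raw counts per Ensembl gene were deposited by the authors in 1 table for 6 aortic libraries, not normalized; the gene length in bases is also a deposited column. Genome build mm39 is given per the submitters' processing notes. Aligner, counter, strand setting and annotation: not given in the sources used here. Samples were grouped by their titles and columns matched by library name; the unused value columns number 0.

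Genes passed filterByExpr (minimum count 10, minimum total 15). Counts were scaled by TMM and compared by edgeR 4.0.16 (glmQLFit, glmQLFTest) in R 4.3.3, with Benjamini-Hochberg adjustment over all 16377 genes and a threshold of 0.05. The SE is the log2 difference over the square root of F, and intervals are approximate (95%). A level of 3 counts equals 0.148 to 0.239 CPM. DESeq2 1.42.0, limma 3.58.1 (voom), scaling, filters, a replicate block and left-out libraries were alternatives; 1 of them, without both replicate 2 libraries, was added after seeing the data. The tests were tried on simulated data, and the share of changes found there is not given here. What size of change could be missed in these libraries is therefore not stated. Every pair of libraries differed by more than counting noise.

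The 8 genes and the 6 pathway and 13 marker lists were chosen with earlier results of these data known. The naming rule takes all 8, up to 4 members of a list with the lowest p, up to 2 most abundant per kilobase, and the 8 genes of most like profile; a few genes it takes are not reported here. Marker genes named follow their level; the part of each cell type in a result was not tested. Plots used matplotlib 3.10.9.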

Additional observations from a re-analysis of the deposited data

How the results depend on the processing

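None of the 8 genes passed the threshold in any of 17 alternative settings (Fdps had no adjusted p in DESeq2), and 109 of their 136 log2 differences kept the sign of the full comparison. Hmgcs1 (0.65 to 1.11 with 1 library left out) and Idi1 (-1.11 to -0.43) kept their direction in all of them. The others turned with 1 library left out, ranging over -0.51 to 0.64 (Sqle), -0.35 to 0.41 (Insig1), -0.058 to 0.91 (Fdps), -0.30 to 0.31 (Lss), -0.22 to 0.33 (Cyp51) and -0.28 to 0.61 (Srebf2). Quality weights in limma-voom turned Sqle (-0.37), Insig1 (-0.050), Fdps (-0.24), Cyp51 (-0.23) and Srebf2 (-0.084); limma-voom without weights turned Lss (0.026) and upper-quartile scaling turned Cyp51 (-0.0077). Without WT replicate 3 and sST2-KO replicate 2, Sqle was at -0.27, Srebf2 at -0.27 and Lss at 0.20, with Insig1 at 0.68 and Cyp51 at 0.35. In that set the median was -0.18 for SREBP control and 0.066 for isoprenoid branches. Without both replicate 2 libraries, Sqle was at -0.48, Insig1 at -0.0073, Fdps at -0.26, Cyp51 at -0.18 and Srebf2 at -0.21. The causes were not tested.

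With 1 library left out, 0 to 1 of the 8 were higher and 0 to 1 lower without overlap. It was 1 higher and 1 lower without WT replicate 3 and sST2-KO replicate 2 (22.3% and 21.9% of tested genes), and 1 higher and 2 lower without both replicate 2 libraries (26.1% and 25.5%). Medians with 1 library left out ranged over -0.11 to 0.37 for the 8 genes, -0.095 to 0.39 for the 15 other enzymes, -0.17 to 0.064 for SREBP control, -0.27 to -0.059 for uptake, 0.14 to 1.09 for lipogenesis, -0.43 to 0.014 for efflux and 0.053 to 0.21 for isoprenoid branches. DESeq2 called 1 gene of the uptake list, Msr1, lower in sST2-KO, where it called 1.42% of all tested genes lower. No other setting called Msr1. With a replicate block, 0 of the 8 passed and Lss was at 0.050; deviations of same-numbered libraries correlated at 0.145, 0.046 and -0.087 over genes, so the numbers were not taken to pair the samples. Fdps, with 9 to 34 counts, and Insig1, with 273 to 1909, had the widest SEs of the 8 (0.63 and 0.59).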

Other observations

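The isoprenoid branches that leave the pathway at farnesyl diphosphate were not described above. Of 11 tested genes, 0 passed in edgeR, and the median log2 difference was 0.21. At an edgeR unadjusted p under 0.05, 5.08% of all tested genes were higher and 5.95% lower. Among the 11 genes, 1 was higher and 0 lower at that p. That 1 gene was Coq2, the prenyltransferase of ubiquinone synthesis, with 47.8, 32.4 and 42.7 (WT 1, 2 and 3) and 54.8, 66.4 and 60.1 CPM (sST2-KO 1, 2 and 3) (log2 difference 0.56, SE 0.19; edgeR adjusted p = 0.433). Pdss2, a subunit of the enzyme that makes the ubiquinone side chain, had at most 7.003 CPM in WT and 8.81 to 11.2 CPM in sST2-KO (log2 difference 0.48, SE 0.25; edgeR adjusted p = 0.494). Both were higher in sST2-KO without overlap, and 19.1% of tested genes separated the groups in either direction. Nus1, a subunit of the dolichol-making prenyltransferase, separated the groups in the lower direction (83.1 to 85.1 CPM in WT, 65.1 to 82.2 CPM in sST2-KO) with a log2 difference of -0.22 (SE 0.15), and Fnta, shared by the farnesyl and geranylgeranyl transferases, of -0.010 (SE 0.16).

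The genes with profiles nearest to single members, looked up after the values were seen, differed from member to member. Hmgcs1 lay nearest to Ppcs, an enzyme of coenzyme A synthesis (0.14 log2 units), Me3, a mitochondrial malic enzyme (0.15), and Cntfr (0.15). Srebf2 lay nearest to Bbs7, a component of the ciliary BBSome (0.068), and Cyp51 to Pold2 (0.067) and Mcm7 (0.076), which act in DNA replication. For Insig1 near profiles were those of Acp5 (0.20) and Psmg4 (0.21).

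Of the marker lists not yet given, fibroblast markers summed to 10712 to 12371 CPM in WT and 4551 to 7036 CPM in sST2-KO, without overlap, and all 7 had negative log2 differences. Endothelial markers summed to 839 to 1029 CPM in WT and 650 to 1704 CPM in sST2-KO. Erythroid markers summed to 745 to 4771 CPM in WT and 60.5 to 1177 CPM in sST2-KO. Skeletal muscle markers summed to 4.62 to 11.3 CPM in WT and 6.32 to 25.3 CPM in sST2-KO. Steroidogenic cell markers summed to 6.86 to 28.7 CPM in WT and 5.26 to 9.43 CPM in sST2-KO, with 2 of the 8 at 0 in every library. The sum of 28.7 CPM was that of WT replicate 3, where Hsd3b1 alone had 19.5 CPM. Hsd3b1 had 0 counts in every other library.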
